A study of Caenorhabditis elegans with 4 samples.

Results

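The core and linker histone genes of Caenorhabditis elegans were examined for promoter peaks of LIN-15B in L4 larvae. They were taken as the protein-coding genes whose Ensembl name begins with his- or hil-, which gave 80 of 19985 protein-coding genes. The divergent pair his-67 and his-68 had a promoter peak in the list that passed the authors' reproducibility threshold, which is 2.50% of the 80, against 1.98% of all protein-coding genes. In the pooled list 7 had one, 8.75% against 12.5% of all genes, so both shares lay near the background. A promoter peak in any list was present at 24 of the 80, against 10425 of all 19985 genes. In those 24 members, at least 53.7% of the promoter window was sequence that occurs once in the genome. The 40 members with the most repeated windows had no peak in any list.

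Core histones (H2A, H2B, H3 and H4) form the protein spool of the nucleosome, and linker histones (H1) bind the DNA that enters and leaves it. In animals most core histone genes are replication-dependent: they lie in clusters of near-identical copies, are transcribed in S phase, and their mRNAs end in a conserved stem-loop instead of a poly(A) tail. Isolated genes usually encode replacement variants such as H3.3, which are made and deposited outside S phase. LIN-15B carries a THAP-type zinc finger and belongs to the synMuv B proteins, worm chromatin factors known for keeping germline genes silent in somatic cells.

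The data were ChIP-seq peak lists from 4 samples in 1 group, whole larvae of mixed sex at the L4 stage. All came from strain OP184, which carries the allele unc-119(tm4063) on chromosome III and the integrated transgene wgIs184 with a tagged lin-15B. The labels call the fusion eGFP-lin-15B in one place and a C-terminal GFP-FLAG tag in another. The protein was thus read from an added transgene copy, and whole animals mix germline with somatic nuclei and cycling with non-cycling cells. There were 3 biological replicates, and replicate 3 had 2 technical libraries that share 1 list and were counted once. No second condition exists in the series. Read counts are not part of the peak lists, which leaves sequencing depth unknown. On the ce11 assembly the optimal list (peaks past the reproducibility threshold) held 383 peaks, the pooled list 8636, and each replicate list 30000. The replicate lists contain background by design. A promoter peak has its summit between 500 bp upstream and 100 bp downstream of an annotated transcript start. Scores are the authors' signal values and were used only to rank peaks within a list, rank 1 being the highest.

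Of the 80 members, 71 encode core histones and 9 encode linker histones. Within 5 kb of a neighbouring core gene of another class lay 65 of the core genes, in 13 clusters. These cover 73241 bp in all, and this length and the cluster values below include 500 bp on either side of each cluster. The other 6 core genes, all of class H3, were called isolated because no core gene of another class lay within that distance; his-69 and his-70 among them neighbour each other on chromosome III. The largest clusters were 13 genes on chromosome II (his-16 to his-42) and 8 genes on chromosome V (his-28 to his-18). The 2 smallest held 2 genes each, his-67 with his-68 and his-38 with his-40. A match to the stem-loop consensus followed the stop codon, 31 to 58 bp downstream, in 60 of 65 clustered genes, 1 of 6 isolated genes (his-69) and 0 of 9 linker genes. The 5 clustered genes without one were his-47, his-57, his-35, his-41 and his-37. The 4 versions of the stem-loop are shown because they mark the replication-dependent genes. They were read in the gene's sense from ce11, all in capitals, at IV:8333614-8333629 (minus strand), V:8850872-8850887 (plus), V:8536753-8536768 (plus) and III:4058314-4058329 (minus).
his-31: GGCCCTCTTTAGGGCC
his-52: GGCCCTCTTAAGGGCC
his-39: GGCCCTCTTTAGAGCC
his-69: GGCCCTCTTTAAGGCC
The first version was carried by 52 genes, all clustered, the second and the third by 4 genes each, and the last by his-69 alone. The clusters and the stem-loop thus picked out nearly the same genes, although the grouping used only position and histone class.

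In the optimal list 2 of 80 histone genes had a promoter peak (2.50%, 95% Wilson interval 0.688 to 8.66), against 1.98% of all protein-coding genes. In the pooled list 7 of 80 did (8.75%, 4.30 to 17.0), against 12.5% of all genes. The intervals cover counting error only and treat genes as independent. The 2 optimal members share 1 peak and the 7 pooled members hold 5 peaks, so the intervals are likely too narrow. Even so, both included the share of all genes. In the replicate lists 15, 9 and 13 members had a promoter peak in replicates 1, 2 and 3, which is 18.8%, 11.2% and 16.2% of the 80. The shares of all protein-coding genes in the same lists were 26.2%, 26.9% and 26.7%. The mean over replicates was 15.4% ± 3.82 for histone genes and 26.6% ± 0.357 for all genes (SD, n = 3 each). Histone genes were lower in each of the 3 lists. In all 3 replicate lists 3 members had a peak, against 6.87% of all genes. No list held a promoter peak for 56 of the 80 members and for 9560 of the 19985 protein-coding genes.

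**Figure D1:**
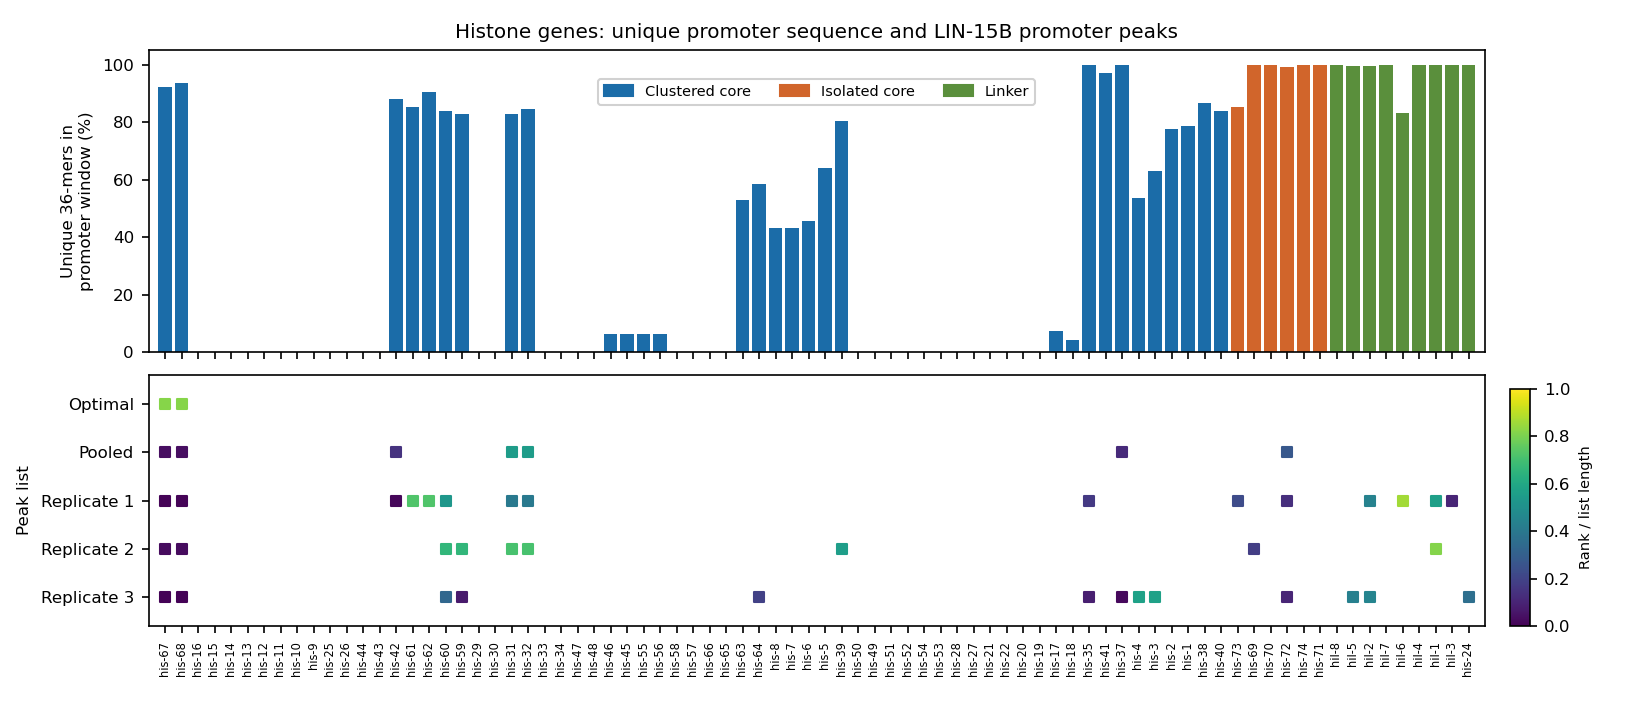
Each column is a histone gene, in the order clustered, isolated, linker. The upper plot shows the percentage of 36-mers in the promoter window that occur once in the genome, and the squares below show the lists with a promoter peak, coloured by rank over list length (dark is high-ranking). The 40 genes whose bars are under 10% have no square in any list.

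The pair his-67 (H4) and his-68 (H2A) gave the strongest and most repeatable signal of the family. The genes are transcribed away from each other from 368 bp of intergenic sequence on chromosome I, and 1 peak served both. On ce11 the peak spanned I:9988797-9989136 with its summit at 9988967, at −204 bp from the start of his-67 and −165 bp from that of his-68. Its score was 31.6 and its rank 314 of 383 in the optimal list, so it lay in the lower part of that list. In the replicate lists it ranked 237 in replicate 1, 935 in replicate 2 and 180 in replicate 3 of 30000. The summits of the 3 replicates lay 22, 80 and 5 bp from the pooled summit, so all 3 placed LIN-15B between the 2 start sites. It was the only optimal peak within a histone promoter window. The pairing of H2A with H4 was found once among 31 divergent pairs; the others join H3 with H4 or H2A with H2B.

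The third gene with a peak in all 3 replicate lists, his-60 (H4), was not a match of that kind. Its peaks ranked 15899, 19708 and 9939, and their summits lay at −405, −118 and −423 bp in replicates 1, 2 and 3. Those of replicates 1 and 3 fell inside the coding exon of the neighbouring H3 gene his-59, and only that of replicate 2 fell between the genes. The pooled list had no summit in the window of his-60. A summit of rank 1768 lay at the last annotated base of his-60, outside every histone promoter window.

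The other 5 members with a pooled promoter peak were spread over 4 chromosomes and lacked a peak in at least 1 replicate. The H4 gene his-37 had a peak at V:9546825-9547164 of rank 1031 and score 19.5, with its summit at −110 bp. Replicate 3 had a peak there of rank 657, whereas the nearest summits of replicates 1 and 2 lay 626 and 532 bp away. The signal at his-37 thus rested on replicate 3.

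The H3 gene his-42, at the end of the chromosome II cluster, had a peak at II:13828999-13829338 of rank 1260 and score 18.3. Its summit lay at −472 bp, near the outer edge of the window. Replicate 1 had a promoter peak of rank 496, replicate 3 a summit at −575 bp of rank 275 whose peak covered the pooled summit, and replicate 2 none within 954 bp. The −575 bp summit was thus just outside the window, and the outermost summit just inside it was that of hil-2 in replicate 1, at −491 bp.

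The divergent pair his-31 (H4) and his-32 (H3) shared a peak at IV:8333956-8334295 of rank 4752 and score 13.2. Its summit lay at −143 bp from his-31 and −179 bp from his-32. Replicates 1 and 2 had their summit at the same base, at ranks 12174 and 21237, and the nearest summit of replicate 3 was 6128 bp away.

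Among isolated genes, his-72 had a pooled peak. It encodes the replacement variant H3.3, which is laid down independently of DNA replication. The peak spanned III:12368983-12369322 at rank 2348 and score 15.7, with its summit at −103 bp. Replicate 1 had a peak of rank 4020 and replicate 3 peaks of rank 3095 (at +77 bp) and 5671 (at −272 bp), while the nearest summit of replicate 2 lay 559 bp away. The paralogous H3.3 gene his-71 had no promoter peak in any list, although its window was 100% unique.

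Of the 5 pooled peaks in histone windows all 5 lay in intergenic sequence, and for all 5 the nearest protein-coding start was that of a histone gene. The sequence around 4 of these summits is shown so that the promoters with a LIN-15B peak can be read against each other. Each is 100 bp on either side of the pooled summit on ce11, read in the gene's sense: his-31 at IV:8334026-8334226 (minus strand), his-37 at V:9546895-9547095 (plus), his-42 at II:13829069-13829269 (minus) and his-72 at III:12369053-12369253 (minus). The fifth sequence is the 272 bp between his-10 and his-9 at II:13823376-13823647 (plus strand), an H4 and H3 promoter with no peak in any list, 0% unique 36-mers, and 1 of 3 identical copies in the genome. Capitals mark TATAAA, which is the core of a TATA box, and ATGTGTCCC, a run of 9 bases common to many histone promoters, on either strand.
his-31: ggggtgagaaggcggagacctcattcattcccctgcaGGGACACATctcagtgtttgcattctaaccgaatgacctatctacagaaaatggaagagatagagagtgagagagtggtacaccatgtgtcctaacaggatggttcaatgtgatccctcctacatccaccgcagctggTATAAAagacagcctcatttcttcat
his-37: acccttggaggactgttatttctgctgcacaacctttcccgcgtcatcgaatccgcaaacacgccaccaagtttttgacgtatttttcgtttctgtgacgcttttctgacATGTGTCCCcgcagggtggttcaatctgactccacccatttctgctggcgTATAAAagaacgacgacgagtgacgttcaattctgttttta
his-42: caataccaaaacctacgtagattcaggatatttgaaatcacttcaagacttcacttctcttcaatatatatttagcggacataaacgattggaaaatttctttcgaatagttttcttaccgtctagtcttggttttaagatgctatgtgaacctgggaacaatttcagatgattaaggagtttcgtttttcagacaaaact
his-72: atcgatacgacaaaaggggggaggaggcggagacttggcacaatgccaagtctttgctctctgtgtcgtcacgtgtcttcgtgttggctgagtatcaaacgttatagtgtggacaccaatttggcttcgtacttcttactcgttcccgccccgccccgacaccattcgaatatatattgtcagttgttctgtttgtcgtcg
his-10/his-9: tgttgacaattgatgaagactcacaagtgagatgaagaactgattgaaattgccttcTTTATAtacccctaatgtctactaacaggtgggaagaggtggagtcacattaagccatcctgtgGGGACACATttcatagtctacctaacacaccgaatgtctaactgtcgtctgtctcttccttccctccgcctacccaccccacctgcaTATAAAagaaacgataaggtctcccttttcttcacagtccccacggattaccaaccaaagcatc
The his-31 and his-37 stretches hold both marked elements, as does the unlisted his-10/his-9 promoter, and the his-42 and his-72 stretches hold neither. G+C content was 47.3%, 47.3%, 33.3% and 49.8% in the 4 summit stretches and 44.9% in his-10/his-9. The 4 stretches held 3, 14, 6 and 15 CG dinucleotides in the same order.

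**Figure D2:**
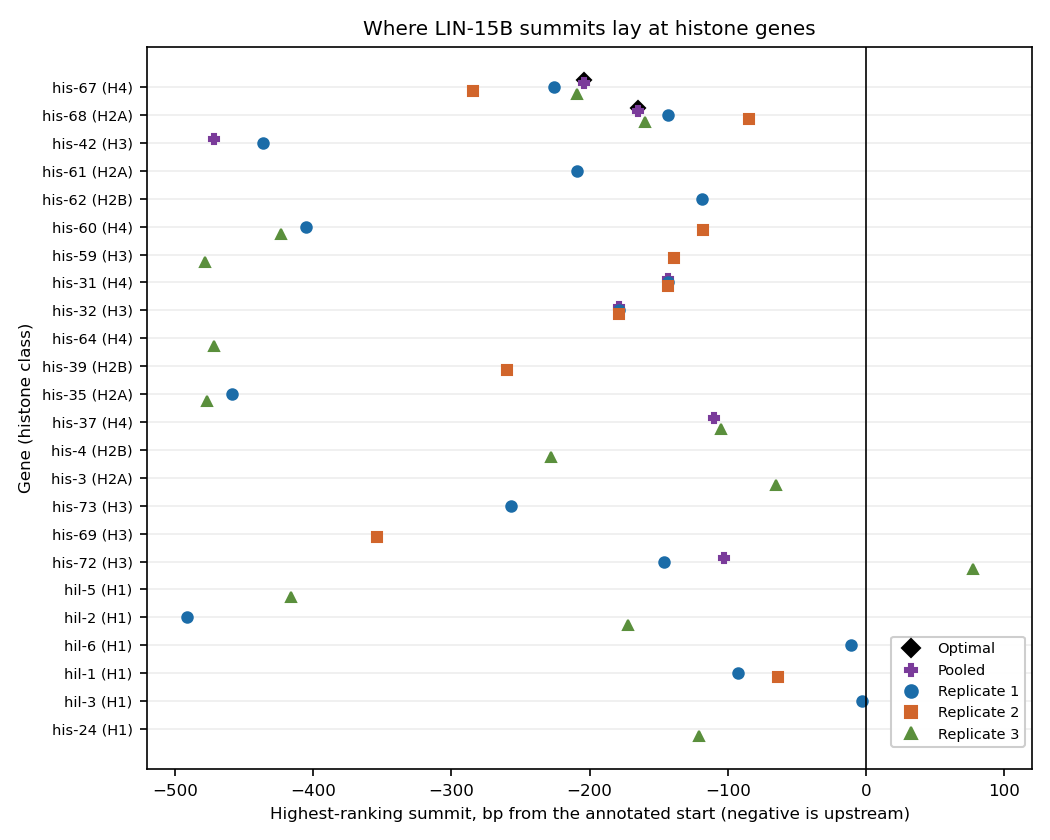
Summit positions at the 24 histone genes with a promoter peak in any list, in bp from the annotated start, with the highest-ranking summit of each list as 1 symbol. The his-67, his-68, his-31 and his-32 summits of several lists fall close together, while those of his-59, his-60 and hil-2 are spread over 300 bp or more.

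Clustered and isolated core genes were compared next. In the pooled list 6 of 65 clustered genes (9.23%) and 1 of 6 isolated genes (16.7%) had a promoter peak. The difference was −7.44 percentage points with an interval of −47.4 to 9.19. That interval also treats genes as independent, although paired clustered genes share a peak. In the replicate lists the share was 13.8%, 10.8% and 13.8% of clustered genes and 33.3%, 16.7% and 16.7% of isolated genes in replicates 1, 2 and 3. The means were 12.8% ± 1.78 for clustered genes and 22.2% ± 9.62 for isolated genes (SD, n = 3 each). The difference within a replicate was −19.5, −5.90 and −2.82 points, with a mean of −9.40 ± 8.87. The exact sign-flip permutation test over the 3 replicates, two-sided, gave p = 0.25, the smallest value that 3 replicates allow. With 6 isolated genes, 1 gene moves that share by 16.7 points.

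The direction of that comparison turned with the repeat content of the windows. Of the 65 clustered genes, 40 had windows with under 10% unique 36-mers, 33 of them 0%, and the other 25 ranged between 43.3% and 100%. Isolated windows ranged between 85.2% and 100%, and linker windows between 83.4% and 100%. None of the 40 repeated windows had a peak in any list. Among windows at least 40% unique, 6 of 25 clustered genes and 1 of 6 isolated genes had a pooled peak, a difference of +7.33 points. The replicate mean there was 33.3% ± 4.62 for clustered and 22.2% ± 9.62 for isolated genes, a difference of +11.1 ± 8.34 points (exact sign-flip permutation test, p = 0.25, n = 3). Among windows at least 90% unique the difference was +35.6 ± 19.2 points, from 6 clustered and 5 isolated genes (exact sign-flip permutation test, p = 0.25, n = 3). Those 6 were his-67 and his-68, which share their peak, his-62, and his-35, his-41 and his-37, which lack the stem-loop. In replicates 1 and 3 the his-35 summits (−459 and −477 bp) lay nearer to the start of C50F4.6 (−345 and −327 bp). The only promoter peak of his-62 was in replicate 1, at rank 21705.

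The same held across the genome. Of 284 protein-coding genes with windows under 10% unique, which include the 40 histone genes, 0 had a promoter peak in any of the 5 lists. The mean replicate share of all genes was 3.14% ± 1.66 at 10 to 40% unique, 18.0% ± 1.35 at 40 to 90% and 28.0% ± 0.470 at 90% or more (SD, n = 3). Among summits on nuclear chromosomes, the 100 bp on either side held no unique 36-mer for 1 of 365 optimal (0.274%) and 3 of 8618 pooled summits (0.0348%). In replicates 1, 2 and 3 this held for 18, 7 and 26 summits (0.0600%, 0.0233% and 0.0868%). By comparison, 3.07% of 100263 positions spaced 1000 bp apart along the genome held none. Whether reads with several genomic matches were dropped before peak calling is not given in the sources used here. At the 40 repeated histone promoters, absence of LIN-15B and absence of placeable reads cannot be told apart.

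Among genes with largely unique windows, the mean histone share was not below the background. Of 19 histone genes with windows at least 90% unique, 2 had an optimal peak (10.5%), against 2.05% of the 17865 protein-coding genes with such windows. Those 2 were his-67 and his-68, which share 1 peak. A pooled peak was present at 4 of the 19 (21.1%), against 13.2% of all such genes. In replicates 1, 2 and 3 the shares were 42.1%, 21.1% and 42.1% of the 19, against 27.6%, 28.5% and 28.0% of all such genes. The replicate mean was 35.1% ± 12.2 for these 19 histone genes and 28.0% ± 0.470 for all genes with such windows (SD, n = 3 each), a difference smaller than the spread between replicates. Over the 40 histone genes with windows at least 40% unique the mean was 30.8% ± 7.64, against 27.2% ± 0.373 of all 19542 such genes.

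**Figure D3:**
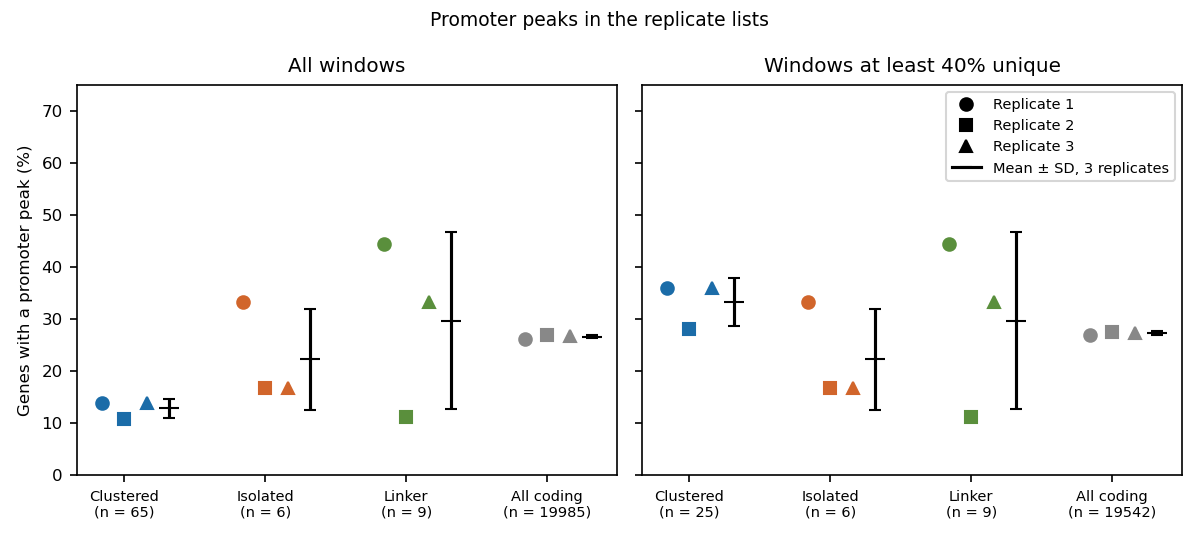
Percentage of genes with a promoter peak in each replicate list for clustered, isolated and linker histone genes and for all protein-coding genes; symbols are replicates and bars the mean ± SD of 3. Clustered genes average 12.8% over all windows and 33.3% over windows at least 40% unique, while isolated and linker values do not move because all their windows pass.

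**Figure D4:**
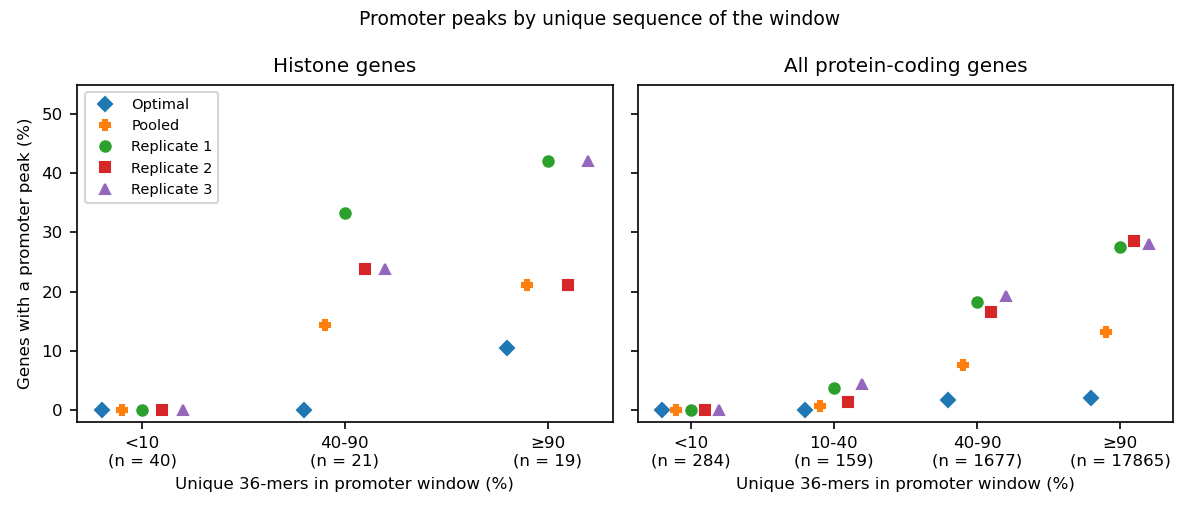
Percentage of genes with a promoter peak in each of the 5 lists against the unique 36-mer content of the window, for histone genes and for all protein-coding genes. Both are at 0% in every list under 10% unique, and the pooled and replicate shares of all genes are highest at 90% or more. No histone window lies between 10 and 40%.

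There were 31 divergent pairs, 16 of H2A with H2B separated by 227 to 327 bp, 14 of H3 with H4 separated by 234 to 321 bp, and his-67/his-68. An identical copy of the whole intergenic stretch existed for 11 H2A/H2B pairs and 5 H3/H4 pairs. A summit of any list fell between the genes in 2 H2A/H2B pairs (his-61/his-62 and his-4/his-3), 2 H3/H4 pairs (his-60/his-59 and his-31/his-32) and his-67/his-68. None of those 5 stretches had an identical copy, and all 5 were 100% unique. The clusters on chromosome V that run from his-50 to his-53 and from his-28 to his-18 were 0% and 4.92% unique and held 0 summits in any list. Unique sequence did not always come with a peak, since the cluster of his-38 and his-40 was 83.6% unique and also held 0 summits in any list. The stretches of his-38/his-40, his-2/his-1 and his-35/his-41 were 100% unique and had no summit between the genes.

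Summits were also counted over the whole of the 13 clusters, with 500 bp on either side of each. Some of them therefore lay beyond the outermost histone gene of a cluster. The clusters held 1 optimal summit, too few for a density, and 11 pooled summits, 0.150 per kb against 0.0859 per kb of the nuclear genome. The replicate lists gave 0.232, 0.177 and 0.287 per kb in the clusters and 0.299 per kb in the genome in each replicate. Of the 11 pooled summits in clusters, 7 lay outside every histone promoter window and 2 of these inside a histone gene, his-60 (at its last base) and his-57. The lowest unique 36-mer content around these 11 summits was 76.5%, so in the mixed clusters the pooled peaks fell on stretches that are mostly unique. Of the 21 replicate 3 summits in clusters, 1 was under 50% unique. It lay inside his-63 at 25.3% and was the promoter peak counted for his-64.

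By histone class, pooled promoter peaks were found at 3 of 16 H4 genes (his-67, his-31 and his-37), 3 of 21 H3 genes (his-42, his-32 and his-72), 1 of 17 H2A genes (his-68) and 0 of 17 H2B genes. The replicate means were 20.8% ± 3.61 for H4, 14.3% ± 4.76 for H3, 13.7% ± 6.79 for H2A and 5.88% ± 0 for H2B (SD, n = 3). H2B thus had 1 gene in each replicate, and it was a different gene each time, his-62, his-39 and his-4 in replicates 1, 2 and 3. Genes of a divergent pair share their peak, and the classes differ in how many of their windows are repeated, so these shares are a description of the loci and not of the proteins. Over all protein-coding genes the pooled share was 12.5% and the replicate mean 26.6% ± 0.357.

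Of the 9 linker histone genes 0 had an optimal or a pooled peak, against 1.98% and 12.5% of all genes, and the Wilson interval of each 0 reaches 29.9%. In the replicate lists 4, 1 and 3 of the 9 had one in replicates 1, 2 and 3, a mean of 29.6% ± 17.0 against 26.6% ± 0.357 of all genes (SD, n = 3 each). The highest-ranking was hil-3 in replicate 1, at rank 3051 with its summit at −3 bp. The gene hil-1 had a peak in replicate 1 (rank 16768) and replicate 2 (rank 24420), and hil-2 in replicate 1 (rank 13129) and replicate 3 (rank 13487). The remaining ones were in 1 replicate each: hil-6 at rank 25837, hil-5 at rank 13007, and his-24 at rank 10811. The gene his-24 encodes an H1 needed for silencing of germline transgenes. No linker gene had a peak in all 3 replicates, and hil-4, hil-7 and hil-8 had none although their windows were 100% unique.

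The isolated H3 genes were equally uneven. Besides his-72, the H3.3-type gene his-69 had a peak in replicate 2 of rank 5449 at −354 bp, and his-73 one in replicate 1 of rank 6803. The protein of his-73 has 46 residues and was placed in class H3 by its match to his-13, and its peak lay nearer to the start of the neighbouring gene W09H1.4 (80 bp upstream). The H3.3-type genes his-70 and his-74 had no peak in any list. No isolated gene therefore had a promoter peak in all 3 replicates.

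The base composition and motifs of the windows, which the choice of genes did not use, were described for clustered, isolated and linker genes. They were only counted, and 33 of the clustered windows hold no unique 36-mer, so copies of 1 sequence were counted several times. There were 6 isolated and 9 linker genes, and 1 gene moves an isolated share by 16.7 points. Small differences in motif share between the groups therefore cannot be read. The median G+C content of the window was 50.1% for clustered genes, 34.0% for isolated genes and 37.1% for linker genes, against 34.8% for all protein-coding genes. Clustered windows take in histone coding sequence, since 61 of 65 clustered genes have their annotated start at the start codon. In divergent pairs, 227 to 368 bp apart, the windows also reach into the neighbouring gene. G+C content without the coding sequence was not measured by group. TATAAA was found on either strand in 76.9% of clustered windows, 66.7% of isolated windows and 77.8% of linker windows, against 62.7% of 19973 nuclear protein-coding windows. CCAAT was found in 89.2% of clustered, 83.3% of isolated and 55.6% of linker windows, against 75.8% of all. The E2F-type sequence TTCCCGCC was found in 0 of 65 clustered and 0 of 9 linker windows. It was found in 1 isolated window, that of his-72, and in 2.65% of all windows. Only this exact sequence was searched, so variants of it were not counted. The his-37 stretch printed above, for example, holds TTCCCGCG, which differs in the last base.

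The run ATGTGTCCC was chosen after the sequences were seen, as the 9-mer held by most divergent histone promoters (13 of 21 distinct sequences, 20 of 31 pairs). It occurred on either strand in 41 of 65 clustered windows, 1 of 6 isolated windows (his-69) and 5 of 9 linker windows (hil-2, hil-3, hil-4, hil-5 and his-24), against 100 of 19973 windows (0.501%). Histone genes thus made up 47 of the 100. In clustered windows its position ranged between −250 and −97 bp from the annotated start, with a median of −138 bp. The clustered windows also shared a 12-mer, 5′-GACCGGAGGAAA-3′, in 57 of 65, against 59 of 19973 windows (0.295%). It was picked as the 12-mer held by most clustered windows, so its high count there follows from the choice. Histone genes made up 57 of the 59. Of the 57 matches of the 12-mer in clustered windows, 29 lay downstream of the start of their gene, at most 54 bp away. The others lay upstream, as far as −412 bp, and the median was +32 bp. For 61 of the 65 clustered genes the annotated start is the start codon, so downstream matches in those genes lie in coding sequence. An upstream match can be the same bases seen from the neighbouring gene. The match at II:13818100-13818111 lay inside his-16 (13817760 to 13818143) and within 500 bp upstream of his-15. How many of the upstream matches fall in a neighbouring gene was not counted.

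Of the 7 members with a pooled peak, 5 held the 9-mer, and its centre lay 28 bp from the summit of his-67/his-68, 14 bp from that of his-37 and 59 bp from that of his-31/his-32. Among histone genes with windows at least 40% unique, 5 of 19 with the 9-mer and 2 of 21 without it had a pooled peak. In replicates 1, 2 and 3 these counts were 9, 7 and 10 of 19 with it and 6, 2 and 3 of 21 without it. The 53 other protein-coding genes with the 9-mer had 0 optimal and 2 pooled peaks (3.77%), against 12.5% of all genes. Their shares in replicates 1, 2 and 3 were 22.6%, 34.0% and 34.0%, against 26.2%, 26.9% and 26.7% of all genes. Paired genes share both the sequence and the peak, and no test was made.

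The genes that supply and place histones were counted from a list of 14. Pooled promoter peaks were present at 6 of them (42.9%), against 12.5% of all genes, and an optimal peak at 1 (7.14%), against 1.98% of all genes. That gene was unc-85, 1 of the 2 worm ASF1 histone chaperones, whose peak ranked 132 in the optimal list with a score of 53.4 and its summit at −484 bp. Its window held a peak of rank 93 at −444 bp in replicate 1, rank 93 at −473 bp in replicate 2 and rank 552 at −243 bp in replicate 3, so the summit of replicate 3 lay apart from the others. The other 5 were chaf-2 (a subunit of the chromatin assembly factor CAF-1) at rank 430, nap-1 (a nucleosome assembly protein) at rank 1026, cdl-1 (the stem-loop binding protein of histone mRNA) at rank 1132, spt-16 (a subunit of FACT) at rank 3983 and hira-1 (the H3.3 chaperone HIRA) at rank 4396. In replicates 1, 2 and 3 there were 8, 5 and 7 of the 14 with a peak (57.1%, 35.7% and 50%), against 26.2%, 26.9% and 26.7% of all genes. Without a pooled peak, emb-5 (the elongation factor SPT6) had one in all 3 replicates and chaf-1 in replicate 1, while asfl-1, nasp-1, nasp-2, hmg-3, hmg-4 and xnp-1 had none in any list. The peaks of chaf-2 and nap-1 also lay in the windows of Y71G12B.30 and praf-3.

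Of 3 histone variant genes outside the name rule, htz-1 (H2A.Z) had an optimal peak of rank 96 and score 62.7 at −276 bp, shared with wapl-1, a cohesin release factor. It ranked 127, 45 and 697 in the 3 replicates, ahead of the his-67/his-68 peak in replicates 1 and 2 and behind it in replicate 3. The centromeric H3 gene hcp-3 had a peak only in replicate 1, at rank 11669, and its paralog cpar-1 had none.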

How the data were processed

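Peak lists of 4 ChIP-seq samples (3 biological replicates) were used as deposited on ce11. Per the deposited descriptions, the authors called peaks per replicate and for the pool against a control, and thresholded them by reproducibility. Column 7 of the deposited lists, the authors' score for each peak, ranked peaks within a list. The sources used here name no aligner, peak caller or read length. The ce10 lists were not used here. Sample depth is unknown and sets a precision that cannot be stated.

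Genes and starts came from Ensembl release 115 on WBcel235, which has the ce11 coordinates. Ensembl gives 58 names to the 80 members, so RefSeq symbols were matched by gene ID, which renamed 22. Classes of 3 members came from their best protein match. Clusters joined core genes within 5 kb, with at least 2 genes of 2 classes. Unique 36-mers occur once in the genome on either strand. For 61 clustered genes the annotated start is the start codon. Stem-loops were sought within 200 bp after the stop codon. Intervals are 95% Wilson intervals. Replicates were labelled biological, with no more said of how they were kept apart.

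Named genes were members with an optimal or pooled promoter peak or a peak in all 3 replicates, genes sharing such peaks, all linker and isolated genes, and listed supply genes with a pooled peak; the other genes named, and the 9-mer, were chosen after their values were seen. Members, lists and tests were chosen with earlier results of these data known. Scripts were tested on simulated data. Python 3.11.15, numpy 2.4.6, scipy 1.17.1, biopython 1.88, numba 0.67.0 and matplotlib 3.10.9 were used.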

Additional observations from a re-analysis of the deposited data

How the results depend on the processing

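The 2 histone genes with an optimal promoter peak had it under each window and overlap tried, but 0 had one in the upper 50% of the list by score. The pooled count was 7; it was 12 with a window of 1000 bp upstream and 200 bp downstream and 4 for the 19 genes with windows at least 90% unique. No list called without a replicate was used here. A replicate was left out by keeping the optimal or pooled peaks whose summit was covered by a peak in both other replicates, a stricter demand than the full list makes. This gave 2 to 2 optimal and 2 to 4 pooled members, and the pooled value was 2 without replicate 1 and 4 without replicate 2 or 3. The mean replicate share of 15.4% was 26.7% in the wide window, 9.58% in the narrow window (250 bp upstream and 50 bp downstream), 21.7% where any overlap of 1 bp counted, and 10% in the upper 50% by score. With replicate lists shortened to the length of the pooled or the optimal list it was 7.08% or 1.67%, and with windows at least 90% or 40% unique 35.1% or 30.8%. Without 1 replicate it was 13.8% to 17.5%.

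The difference of clustered minus isolated genes in the replicate lists, −9.40 points, ranged between −12.7 and −4.36 without 1 replicate. It reversed to +2.65 in the narrow window, +2.05 in lists of the optimal length, +35.6 with windows at least 90% unique and +11.1 at 40%. The pooled difference of −7.44 points reversed to +30.0 and +7.33 at the same 2 limits. The 40% limit was chosen after seeing the data. The pooled difference kept its sign under the other 9 alternatives, at −1.28 in the wide window and −2.52 with merged regions. Linking clusters within 2 kb or 10 kb changed neither value, whereas clusters of at least 4 genes gave −24.1 points in the replicate lists and −25.6 in the pooled list. The replicate difference was also larger in the wide window (−34.0), with any overlap (−22.5), in the upper 50% by score (−14.5) and at the pooled length (−16.1), and smaller with merged promoter regions (−3.36). The cause was not tested, except that the 40% limit removes 40 clustered genes, none of which has a peak, and no isolated gene. No paired analysis was possible beyond the differences within each replicate, because the series has 1 group. Depth and read length are unknown, and 6 isolated genes limit every comparison with them.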
